A study of Mus musculus with 6 samples.

Results

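The genes described here are the heat shock proteins and the J-domain (DNAJ) co-chaperones, with the transcription factors Hsf1 and Hsf2, in the mouse heart after myocardial infarction (MI). The family was chosen with earlier results of these data known, and its members were then taken by name. A protein-coding gene entered when its symbol was that of an Hsp70, Hsp90, Hsp110, small heat shock or chaperonin gene. Those symbols were Hspa, Hspb, Hspd, Hspe, Hsph or Hsp90 followed by a number or letters. Dnaja, Dnajb and Dnajc genes entered too, as did Hsf1 and Hsf2. That gave 74 genes of 22046 protein-coding genes and of 54532 genes in all: 27 Hsp genes, 45 Dnaj genes and 2 heat shock factors. In the study the left anterior descending coronary artery was tied off for good to induce MI, and the authors sequenced RNA of infarcted and peri-infarcted tissue on day 7. WT mice (3 libraries) were compared with mice lacking the thymic stromal lymphopoietin receptor (labelled TSLPR KO, genotype Crlf2-/-, 3 libraries), and no heart without MI was sequenced among these 6 samples. All 6 are labelled C57BL/6, all were ligated, and no other allele or agent is named.

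By the study's methods the WT mice were C57BL/6J males aged 8 to 12 weeks from a commercial breeder, and the Crlf2-/- mice, on a C57BL/6J background, were made by another company; no age is given for the latter, and genotype and supplier cannot be told apart. No Cre or tissue promoter is named for the knockout. The labels call the tissue heart, but the extraction text names retinas, and no retina markers were checked. The cardiomyocyte markers were all detected, at a summed level of 864 to 2321 FPKM, and the fibroblast markers at 6358 to 7678 over the 6 libraries. Of the 4 thymus genes checked, 2 or 3 were at 0 in each library. Each library held between 18508646 and 19682428 fragments on the listed genes. Crlf2 itself, the targeted gene, was measured at 26.7, 24.8 and 21.6 scaled FPKM (fragments normalised to gene length and library size, then scaled between libraries) in libraries 1, 2 and 3 of WT and 13.3, 18.6 and 19.9 in Crlf2-/-, with no overlap between the groups (log2 fold change -0.51 ± 0.16, and -0.34 without Crlf2-/- 1; two-sided exact permutation p = 0.1, the smallest that 3 against 3 libraries allow). Transcript from the locus was thus still counted in the Crlf2-/- libraries; which exons were removed is not given in the sources used here. The labels do not say whether the libraries came from separate mice, so p-values measure the spread between these libraries.

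Chaperones bind unfolded protein and help it to fold or to be degraded. Hsp70 proteins do so in cycles of ATP hydrolysis that J-domain proteins start and nucleotide exchange factors, the Hsp110 proteins among them, reset; Hsp90 takes over late-folding clients, Hsp60 with Hsp10 folds protein inside mitochondria, and small heat shock proteins hold unfolded protein without ATP. In stressed cells HSF1 binds heat shock elements, inverted repeats of a short unit, and raises a set of these genes, whereas the endoplasmic reticulum (ER) members are raised by the unfolded protein response through the ER stress element. The heart relies on small heat shock proteins that are made mainly in muscle, and ischaemia is among the classic triggers of the heat shock response.

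The promoters were searched for both elements, the heat shock element bound by HSF1 and the ER stress element of the unfolded protein response. Of the 74 genes, 59 had a window of 250 bases before to 50 bases after the transcription start in RefSeq (build GRCm38.p6). The other 15 had none and were not searched, Hspa8, Hsp90aa1, Hsp90ab1, Hspa9, Hspa13 and Hsf1 among them. A heat shock element of 3 units, GAANNTTCNNGAA or its reverse complement TTCNNGAANNTTC on the same strand, stood in the windows of 4 of these 59 members and of 0.662% of all 27025 genes with a window. The shorter element of 2 units (GAANNTTC or TTCNNGAA), which lies inside every longer one, was found for 16 of the 59 members and 17.0% of all genes. The ER stress element, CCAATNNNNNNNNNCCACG on either strand, was found for 3 of the 59 and 0.137% of all genes. The sequences are shown on the strand of the gene, 5′ to 3′, with the letters of the match in capitals. For the heat shock element these are:
Hsph1 (chr5:149636280-149636308, minus strand): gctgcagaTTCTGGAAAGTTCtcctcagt
Hspe1 and, in the other direction, Hspd1 (chr1:55088053-55088082, shown on the plus strand): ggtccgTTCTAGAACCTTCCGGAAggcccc
Dnajb6 (chr5:29735844-29735872, plus strand): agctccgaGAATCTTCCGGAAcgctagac
and for the ER stress element:
Hspa5 (chr2:34772020-34772048, plus strand): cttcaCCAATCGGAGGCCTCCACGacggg
Dnajc3 (chr14:118937822-118937850, plus strand): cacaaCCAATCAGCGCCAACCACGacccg
Hsp90b1 (chr10:86705633-86705661, minus strand): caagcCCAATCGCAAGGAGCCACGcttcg

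Hspd1 and Hspe1, which encode Hsp60 and its partner Hsp10, are transcribed away from each other, and the run of overlapping elements ran from position -89 to -72 relative to the RefSeq start of Hspe1 and from -144 to -127 relative to that of Hspd1. The match in Hsph1 began 15 bases after its start. In the GENCODE M21 annotation of the same genome the Hsph1, Dnajb6, Hspa5 and Hspd1 matches lie in an exon of the 5′ untranslated region of at least one transcript, and those of Dnajc3 and Hsp90b1 lie in no annotated exon. These matches describe letters in a window and were not read as bound sites.

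Across the members, no gene passed the thresholds of the study (adjusted p no higher than 0.05, with a log2 fold change of 0.5 or more in either direction) in limma's test with Benjamini-Hochberg adjustment over the 15520 genes tested, of which 2 genes (0.0129%) did. The study set these thresholds on another test, run on counts, by which it called many more genes. It reports Hsph1, a member, among its downregulated genes, and groups it with genes of T cell activation and T cell receptor signalling. Of the 74 members, 69 had enough fragments to be tested. Their log2 fold changes, Crlf2-/- minus WT, ran from -0.77 to 0.51 with a median of -0.08, and 47 were negative and 22 positive, while over all tested genes 7762 were negative and 7758 positive. At an unadjusted p under 0.05, 8 of the 69 (11.6%) were lower in Crlf2-/-, against 3.24% of all tested genes, and 2 (2.90%) were higher, against 3.31%. In 12 members (17.4%) all Crlf2-/- values were under all WT values, against 6.15% of all tested genes, and in 3 (4.35%) all were over them, against 5.57%. With voom weights on the fragments, again 0 members were called, and 7 were lower and 1 higher at an unadjusted p under 0.05.

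**Figure D1:**
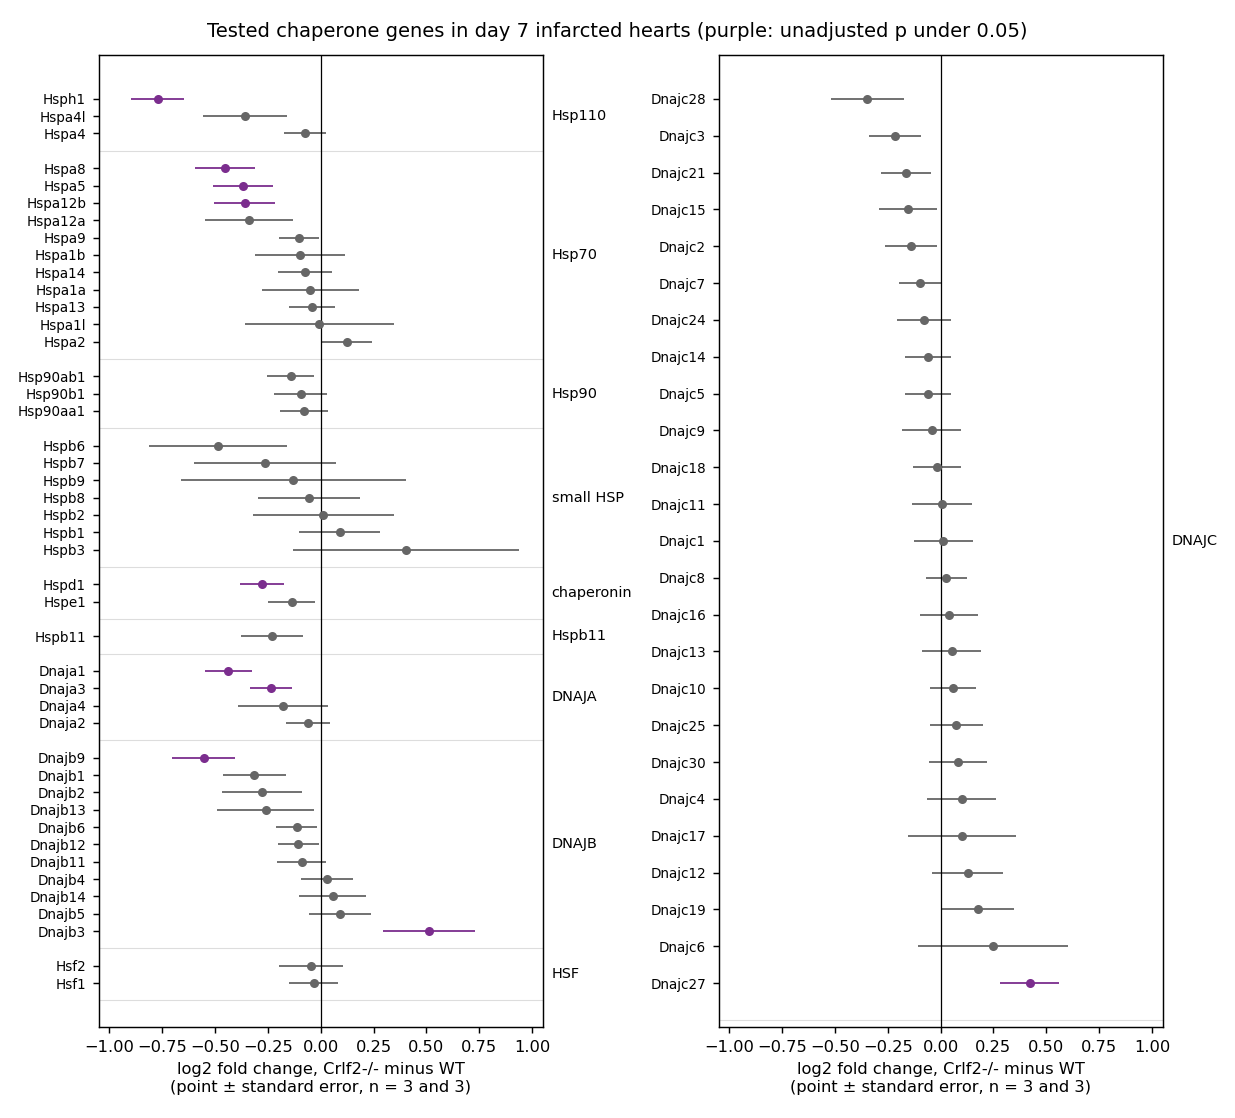
Log2 fold change (x axis, Crlf2-/- minus WT, point ± standard error) of the 69 tested members, one line each, by family. The 8 members to the left and 2 to the right in purple had an unadjusted p under 0.05; the Hsp110, Hsp90, chaperonin, DNAJA and HSF members all lie left of 0, and the 25 DNAJC members lie around it with a median of 0.01.

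The sign of the difference varied by family. All 3 Hsp110 members were on the negative side (median -0.36), as were 10 of 11 Hsp70 (median -0.10), 3 of 3 Hsp90 (median -0.10), both chaperonin genes (median -0.21) and all 4 DNAJA members (median -0.21). Of the 11 tested DNAJB members 7 were negative (median -0.11), and of the 25 tested DNAJC members 11 were negative and 14 positive (median 0.01). The 7 small heat shock proteins split 4 to 3 (median -0.06). These differences between families were not tested.

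In amount, the family was dominated by few members. On the FPKM scale, which is per length of all annotated exon bases of a gene (4301 for Hspa8, whose longest coding transcript in GENCODE M21 has 2394), 6 members averaged 100 or more in WT, 22 lay from 10 to under 100, 34 from 1 to under 10 and 12 under 1. The order in WT began with Hspa8 at 388 ± 5.02, Hsp90ab1 at 353 ± 6.15, Hspa5 at 268 ± 14.8, Hsp90b1 at 152 ± 13.3, Hspb1 at 138 ± 14.7 and Hspb7 at 111 ± 34.5 (mean ± SD, n = 3). The first 3 are the constitutive cytosolic Hsp70, the constitutive cytosolic Hsp90 and the Hsp70 of the ER, and their WT ranges did not overlap. Hsp90b1 and Hspb1 overlapped each other, and Hspb1 and Hspb7 did too. The same 3 members made up 45.9% of the family's summed FPKM in WT and 42.3% in Crlf2-/-. Order and shares rest on the gene lengths used. Summed over all 74 genes, the family took 0.830%, 0.883% and 0.892% of all FPKM in the WT libraries and 0.782%, 0.798% and 0.748% in the Crlf2-/- libraries, so the groups did not overlap. RNA was taken from whole tissue, in which fewer cells of a type and less RNA per cell cannot be told apart.

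The Hsp110 group showed the largest difference of any tested member. Hsph1 (Hsp105), a heat-inducible Hsp110 that serves Hsp70 as an exchange factor and lies at chr5:149614287-149636376, was measured at 11.0, 11.9 and 10.7 in WT and 6.84, 7.25 and 5.56 in Crlf2-/-. All 3 Crlf2-/- libraries were below all 3 WT libraries, with Crlf2-/- 2 the highest of the one group and WT 3 the lowest of the other. Its log2 fold change was -0.77 ± 0.12 with an adjusted p of 0.130 (limma), the smallest of the family, and it stayed at an unadjusted p under 0.05 in all 15 alternative settings with adjusted p-values from 0.101 to 0.470. Its 2 relatives had smaller log2 fold changes. Hspa4, the constitutive member, was at 32.4, 31.8 and 32.0 in WT and 33.0, 29.8 and 28.7 in Crlf2-/-, with overlapping groups (-0.08 ± 0.10). Hspa4l, which is raised by osmotic and heat stress, was at 2.28, 2.82 and 3.94 in WT and 2.37, 2.09 and 2.36 in Crlf2-/-; WT 2 and WT 3 stood above the rest, and its log2 fold change of -0.36 ± 0.20 was -0.15 without WT 3. The 10 T cell markers summed to 15.6, 16.1 and 10.3 in WT and 7.36, 6.24 and 6.02 in Crlf2-/-. At an unadjusted p under 0.05 (limma), 9 of the 10 were lower, against 3.24% of all tested genes. So were 5 of 5 tested red blood cell genes, 5 of 14 cardiomyocyte markers and 1 of 7 endothelial markers. The macrophage, neutrophil, fibroblast and proliferation lists held 0 such genes. The part of any of these cells in the level of Hsph1 was not tested.

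**Figure D2:**
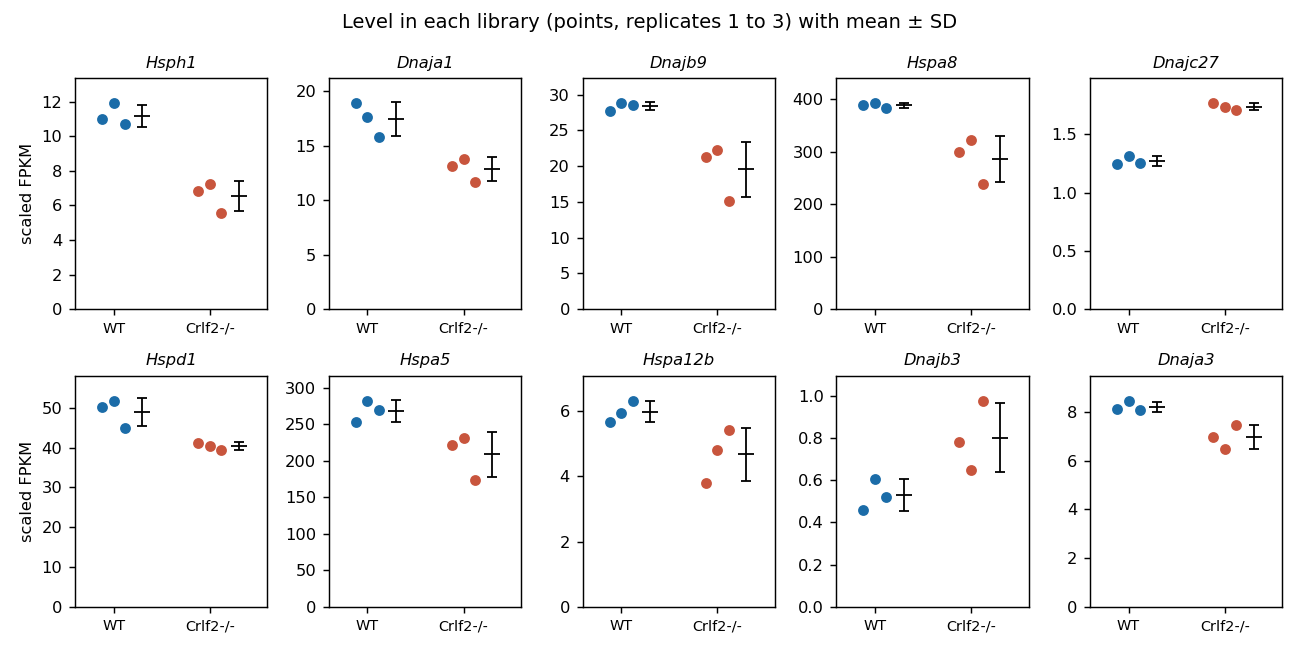
Scaled FPKM (y axis, from 0) in each library for the 10 members with the smallest p, in that order, with replicates 1 to 3 from left to right and the mean ± SD beside them. In all 10 the WT and Crlf2-/- points do not overlap; the third Crlf2-/- library is the lowest for Hsph1, Dnaja1, Dnajb9, Hspa8, Hspd1 and Hspa5.

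Among the cytosolic Hsp70 genes, the constitutive one had a larger log2 fold change than the inducible pair, a contrast that was not tested. Hspa8 (Hsc70, chr9:40800984-40810087), which folds new protein and uncoats clathrin, was at 389.5, 392 and 383 in WT and 299, 322 and 238 in Crlf2-/-. The WT libraries lay within a narrow band, and the Crlf2-/- libraries were all below it and further apart, with the third the lowest. The log2 fold change was -0.45 ± 0.14 (adjusted p = 0.511); without Crlf2-/- 3 it was -0.32. Hspa1a and Hspa1b, near-identical neighbours that encode the heat-inducible Hsp70, stood far lower. Hspa1b was at 5.21, 6.33 and 5.14 in WT and 3.60, 5.89 and 6.47 in Crlf2-/- and Hspa1a at 1.43, 2.46 and 1.48 in WT and 1.88, 1.42 and 1.74 in Crlf2-/-, with log2 fold changes of -0.10 ± 0.21 and -0.05 ± 0.23. Both overlapped between the groups, and which libraries were high was not shared, since WT 2 led Hspa1a and Crlf2-/- 3 led Hspa1b. Some of these genes share long stretches with copies: of all stretches of read length in the transcript, 50.9% for Hspa1a, 44.8% for Hspa1b and 59.1% for Hspa8 occur in another gene's transcripts too. For Hspa1a and Hspa1b that is mainly the other of the pair, so their split is uncertain; for Hspa8 the genes sharing its sequence held 453 fragments against 194996 on Hspa8 over the 6 libraries.

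The remaining Hsp70 genes of the cytosol stood at low levels. Hspa2, best known from germ cells, was at 5.06, 5.83 and 5.73 in WT and 5.60, 6.81 and 5.75 in Crlf2-/- and was the one Hsp70 with a positive log2 fold change (0.12 ± 0.12). Hspa14, part of the ribosome-associated complex, was at 7.19, 5.86 and 5.43 in WT and 5.68, 5.80 and 5.93 in Crlf2-/- (-0.07 ± 0.13). Neither pair of groups was separate. Hspa12a and Hspa12b are distant relatives with an atypical ATPase domain, and the second is made by endothelium. Hspa12b (chr2:131127280-131146321) was at 5.68, 5.94 and 6.32 in WT and 3.81, 4.80 and 5.43 in Crlf2-/-. All 3 Crlf2-/- libraries were lower, the first most (-0.36 ± 0.14, adjusted p = 0.704), but its p was under 0.05 in 11 of 15 alternatives only and in 2 of the 6 that left out a library; without Crlf2-/- 1 the log2 fold change was -0.22. The 7 endothelial markers summed to 141, 146 and 168 in WT and 141, 133 and 145 in Crlf2-/-, overlapped between the groups, and had 1 gene (Tek) lower at an unadjusted p under 0.05; their part in Hspa12b was not tested. Hspa12a was at 1.54, 2.16 and 2.51 in WT and 1.66, 1.35 and 1.79 in Crlf2-/-, overlapping (-0.34 ± 0.21).

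The Hsp90 genes had small log2 fold changes. Hsp90ab1, the constitutive cytosolic form, was at 346, 358 and 353 in WT and 325, 327 and 308 in Crlf2-/-. Each Crlf2-/- library was below each WT library, yet by a small margin: the log2 fold change was -0.14 ± 0.11 (adjusted p = 0.944). Hsp90aa1, the inducible form, was at 92.8, 82.3 and 85.2 in WT and 89.8, 78.8 and 77.9 in Crlf2-/-, and Hsp90b1, the Hsp90 of the ER (Grp94), at 166, 140.4 and 148 in WT and 145, 154 and 127 in Crlf2-/-. Both overlapped, with log2 fold changes of -0.08 ± 0.11 and -0.10 ± 0.13. Hsp90b1 carries an ER stress element in its promoter window, as shown above, and so do Hspa5 and Dnajc3.

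The ER branch held 10 tested members, of which 7 were negative and 2 lower at an unadjusted p under 0.05, against 50.01% and 3.24% of all tested genes. Hspa5 (BiP, chr2:34771970-34777547), the Hsp70 of the ER lumen, was at 252, 282 and 269 in WT and 222, 231 and 173 in Crlf2-/-. The groups were separate, WT 1 being the lowest of WT and Crlf2-/- 3 the lowest of all (-0.37 ± 0.14, adjusted p = 0.686); without Crlf2-/- 3 the log2 fold change was -0.24. For Hspa5 the unadjusted p was under 0.05 in 12 of 15 alternatives, 3 of them leaving out a library. Dnajb9 (ERdj4, chr12:44205559-44210326), a J-domain partner of BiP that restrains the sensor IRE1, was at 27.8, 28.8 and 28.6 in WT and 21.3, 22.2 and 15.2 in Crlf2-/-. Here too every Crlf2-/- library was below every WT library, and the third was far below the other two. The log2 fold change was -0.55 ± 0.15 (adjusted p = 0.374), and -0.38 without Crlf2-/- 3. Dnajc3 (p58IPK), an inhibitor of the kinase PERK and a BiP partner, was at 41.7, 39.6 and 47.3 in WT and 40.9, 37.0 and 33.0 in Crlf2-/- (-0.22 ± 0.12); the groups overlapped through Crlf2-/- 1. Hspa13, a microsomal Hsp70, was at 12.6, 11.6 and 11.5 in WT and 13.0, 11.3 and 10.5 in Crlf2-/- (-0.04 ± 0.11).

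ER stress genes that are no members were drawn from a list of 13, and were taken up after their values were seen. All 13 were tested, and all had a negative log2 fold change (median -0.22, against a median of 0 to 2 decimals over all tested genes). At an unadjusted p under 0.05, 4 were lower and 0 higher, against 3.24% and 3.31% of all tested genes. None passed the adjusted threshold. The 4 were Herpud1, a gene of ER-associated degradation (-0.44 ± 0.10), Manf, a secreted ER stress factor (-0.39 ± 0.12), Creld2, an ER disulfide isomerase-like gene (-0.41 ± 0.13), and Ddit3 (CHOP), the stress transcription factor (-0.33 ± 0.11); the smallest adjusted p, of Herpud1, was 0.279 (limma). Herpud1 was measured at 41.0, 44.7 and 39.2 in WT and 30.5, 32.4 and 28.9 in Crlf2-/-, with separate groups. Xbp1, the factor spliced by IRE1, was at 61.9, 64.2 and 52.8 in WT and 50.7, 53.7 and 38.6 in Crlf2-/- and overlapped (-0.33 ± 0.15), and Atf4 was at 58.3, 56.1 and 43.8 in WT and 46.2, 61.1 and 49.7 in Crlf2-/- (-0.01 ± 0.15).

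The mitochondrial members numbered 8, of which 5 were negative and 2 lower at an unadjusted p under 0.05, against the same shares of all tested genes (50.01% and 3.24%). Hspd1 (Hsp60, chr1:55077835-55088243) was at 50.3, 51.8 and 45.0 in WT and 41.3, 40.4 and 39.3 in Crlf2-/-. The Crlf2-/- libraries lay close together and below WT 3, the lowest WT library (-0.28 ± 0.10, adjusted p = 0.641), and the unadjusted p was under 0.05 in 11 of 15 alternatives and in 2 of the 6 that left out a library. Hspe1 (Hsp10), which shares the promoter stretch shown above with Hspd1, was at 34.8, 30.5 and 28.8 in WT and 27.2, 30.5 and 27.6 in Crlf2-/-. Its groups overlapped, Crlf2-/- 2 lying above WT 3 (-0.14 ± 0.11). Dnaja3 (Tid1, chr16:4639989-4707695), a J-domain partner of the mitochondrial Hsp70, was at 8.11, 8.46 and 8.08 in WT and 7.00, 6.47 and 7.47 in Crlf2-/-, with separate groups (-0.23 ± 0.10, adjusted p = 0.751), but its p was under 0.05 in 7 of 15 alternatives. Hspa9 (mortalin), that Hsp70, was at 37.1, 39.8 and 36.7 in WT and 36.4, 34.9 and 34.4 in Crlf2-/-; the groups were separate by a narrow gap (-0.10 ± 0.09, adjusted p = 0.966). For Hspd1, 22.1% of read-length stretches recur in other transcripts, mainly those of the pseudogene Hspd1-ps3, and the genes sharing them held 416 fragments against 15875. Dnaja3 overlaps exons of Vasn on the same strand and of Coro7 on the opposite strand, over 4.09% and 3.91% of its exon bases, and whether the counting used strand is not given in the sources used here.

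Among the J-domain genes of the cytosol, Dnaja1 (Hdj2, chr4:40722150-40737149), a heat-inducible, farnesylated partner of Hspa8, was measured at 18.9, 17.7 and 15.8 in WT and 13.1, 13.8 and 11.7 in Crlf2-/-. Every Crlf2-/- library was below every WT library, WT 1 being the highest and Crlf2-/- 3 the lowest (-0.44 ± 0.11, adjusted p = 0.342). It kept an unadjusted p under 0.05 in all 15 alternatives. Its exons overlap those of Smu1 on the opposite strand over 7.05% of its exon bases, and Smu1 held 6755 fragments against 17614. Dnajb1 (Hsp40), the classic heat-inducible partner of Hsp70, was at 13.99, 14.1 and 10.6 in WT and 8.97, 10.6 and 11.4 in Crlf2-/-; WT 1 and WT 2 were high, and WT 3 lay among the Crlf2-/- libraries (-0.31 ± 0.15, adjusted p = 0.7995). Dnajb4, a muscle-expressed relative, was at 9.89, 11.4 and 11.4 in WT and 9.66, 11.8 and 12.1 in Crlf2-/- (0.03 ± 0.12). Dnajb6, an inhibitor of aggregation with a Z-disc role in muscle and the fourth bearer of the 3-unit element, was at 13.1, 13.8 and 12.3 in WT and 12.1, 12.5 and 11.5 in Crlf2-/- (-0.11 ± 0.10). The last 3 had overlapping groups. For Dnajb6, 33.0% of read-length stretches recur in transcripts of 7 other genes, the largest part in Gm2541. Those genes held 2248 fragments against 10231 on Dnajb6.

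Of the 40 tested Dnaj genes 18 had a positive log2 fold change and 22 a negative one, and at an unadjusted p under 0.05 there were 2 higher (5.0%) and 3 lower (7.5%), against 3.31% and 3.24% of all tested genes. Dnajc27 (chr12:4082583-4110606), a small GTPase with a J domain, was at 1.24, 1.32 and 1.26 in WT and 1.77, 1.74 and 1.71 in Crlf2-/-. Both groups were tight and did not overlap (0.42 ± 0.14, adjusted p = 0.551), and the unadjusted p was under 0.05 in all 15 alternatives. Dnajb3, an intronless gene on chr1:88204732-88205782, was near the limit of detection at 0.456, 0.607 and 0.522 in WT and 0.779, 0.649 and 0.975 in Crlf2-/-, which rests on 11 to 14 fragments per WT and 16 to 23 per Crlf2-/- library. Its groups did not overlap (0.51 ± 0.22, adjusted p = 0.751), but its p was under 0.05 in 7 of the 15 alternatives. Dnajc28 was at 1.85, 2.15 and 1.94 in WT and 1.26, 1.56 and 1.83 in Crlf2-/-, separate by a narrow gap (-0.35 ± 0.17). Dnajb2, which delivers ubiquitinated clients to the proteasome, was at 6.43, 7.85 and 6.69 in WT and 4.28, 6.00 and 7.30 in Crlf2-/- (-0.28 ± 0.19); without Crlf2-/- 1 the log2 fold change was -0.07 and without Crlf2-/- 3 it was -0.45. Dnajc21, a factor of 60S ribosome maturation, was at 4.24, 3.87 and 3.74 in WT and 3.28, 3.82 and 3.46 in Crlf2-/- (-0.16 ± 0.12), and Dnajc2, the J-domain protein of the ribosome-associated complex, at 6.77, 5.73 and 6.20 in WT and 6.14, 5.84 and 4.98 in Crlf2-/- (-0.14 ± 0.12). The latter 3 overlapped between the groups.

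The 13 members that textbooks count as HSF1 targets, the constitutive Hspa8 and Hsp90ab1 among them, had log2 fold changes of both signs. Of these 13, 4 were lower at an unadjusted p under 0.05 (Hsph1, Hspa8, Dnaja1 and Hspd1), 0 were higher, 11 were on the negative side, and the median was -0.14, while over all tested genes 3.24% were lower at that p and 50.01% negative. In 5 (the same 4 and Hsp90ab1) the groups did not overlap, with Crlf2-/- below WT as in 6.15% of all tested genes. The lowest of the 6 libraries was a Crlf2-/- library for all 13: Crlf2-/- 3 for 6, Crlf2-/- 1 for 5 and Crlf2-/- 2 for 2. Over the 69 tested members the lowest library was Crlf2-/- 3 for 26 (37.7%), Crlf2-/- 1 for 17 (24.6%), Crlf2-/- 2 for 10 (14.5%) and a WT library for the others, while over all tested genes the lowest was Crlf2-/- 3 for 15.5%, Crlf2-/- 1 for 19.1% and Crlf2-/- 2 for 17.4%. Within the list, Hspa1a, Hspa1b and Hspb1 had log2 fold changes of -0.05 ± 0.23, -0.10 ± 0.21 and 0.09 ± 0.19. Those of Hsph1, Dnaja1 and Dnajb1 were -0.77 ± 0.12, -0.44 ± 0.11 and -0.31 ± 0.15. How inducible each gene is was not measured here. The factors themselves did not separate the groups: Hsf1 was at 3.36, 3.31 and 3.73 in WT and 3.32, 3.55 and 3.27 in Crlf2-/- and Hsf2 at 1.79, 1.55 and 1.90 in WT and 1.85, 1.67 and 1.55 in Crlf2-/-, both overlapping (-0.03 ± 0.11 and -0.04 ± 0.15). HSF1 is regulated mostly after translation, which transcript levels do not show.

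**Figure D3:**
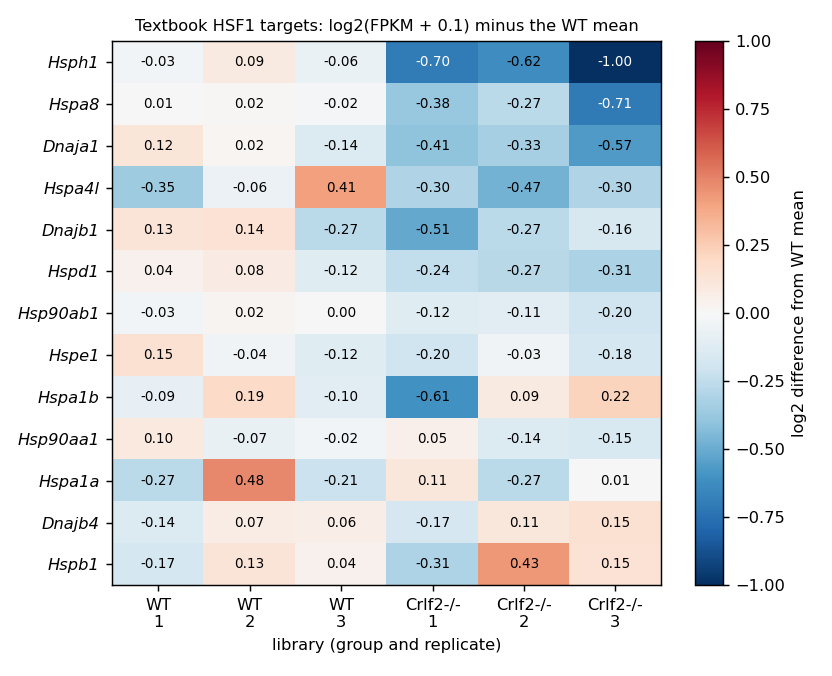
Log2(scaled FPKM + 0.1) of the 13 textbook HSF1 targets among the members (rows) in each library (columns) minus the mean of the 3 WT libraries, blue for lower and red for higher. The rows from Hsph1 to Dnaja1 are blue in all 3 Crlf2-/- libraries, whereas the rows of Hspa1b, Hspa1a and Hspb1 hold both signs among the Crlf2-/- libraries.

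The small heat shock proteins of muscle varied more between libraries of a group than between groups. Hspb6 (Hsp20), a phosphoprotein of heart and smooth muscle, was at 17.1, 32.9 and 34.1 in WT and 12.9, 20.3 and 26.4 in Crlf2-/- (-0.49 ± 0.32). Its log2 fold change was -0.81 without WT 1 and -0.21 without Crlf2-/- 1, and its p was under 0.05 in 2 of 15 alternatives, without WT 1 and with the replicate block. Hspb7 (cvHsp), a cardiac protein of the sarcomere, was at 71.9, 138 and 123 in WT and 62.0, 80.6 and 141 in Crlf2-/- (-0.26 ± 0.34). In both WT 1 and Crlf2-/- 1 were the lowest of their groups. Hspb8, a partner of Bag3 in autophagy, was at 26.1, 44.4 and 43.6 in WT and 27.2, 40.4 and 41.0 in Crlf2-/- (-0.06 ± 0.24), and Hspb2, which neighbours Cryab, at 6.17, 9.35 and 6.91 in WT and 4.14, 9.26 and 10.6 in Crlf2-/- (0.01 ± 0.33). Hspb3, an Hspb2 partner, was at 0.837, 0.817 and 0.527 in WT and 0.349, 2.24 and 1.08 in Crlf2-/- (0.40 ± 0.53), and -0.16 without Crlf2-/- 2. Hspb1 (Hsp27 in man, Hsp25 in mouse), which is made in many cell types, was at 122, 151 and 142 in WT and 111, 186 and 152 in Crlf2-/- (0.09 ± 0.19). None of the 6 had separate groups or, with all libraries and no block, a p under 0.05, and the 14 cardiomyocyte markers summed to 1276, 2321 and 2161 in WT and 943, 864 and 1653 in Crlf2-/-. WT 1 was the lowest WT library for that sum and for 5 of the 6 genes, Hspb3 being lowest in WT 3. Among the Crlf2-/- libraries the sum was lowest in Crlf2-/- 2 and highest in Crlf2-/- 3, whereas all 6 genes were lowest in Crlf2-/- 1, and Hspb1 and Hspb3 were highest in Crlf2-/- 2. All 14 of those markers had a negative log2 fold change, 5 of them at an unadjusted p under 0.05, with a median of -0.72, and the part of cardiomyocyte content in these values was not tested. Hspb2 overlaps exons of Cryab on the opposite strand over 30.2% of its exon bases, and Cryab held 33146 fragments against 871, so the level of Hspb2 is uncertain.

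**Figure D4:**
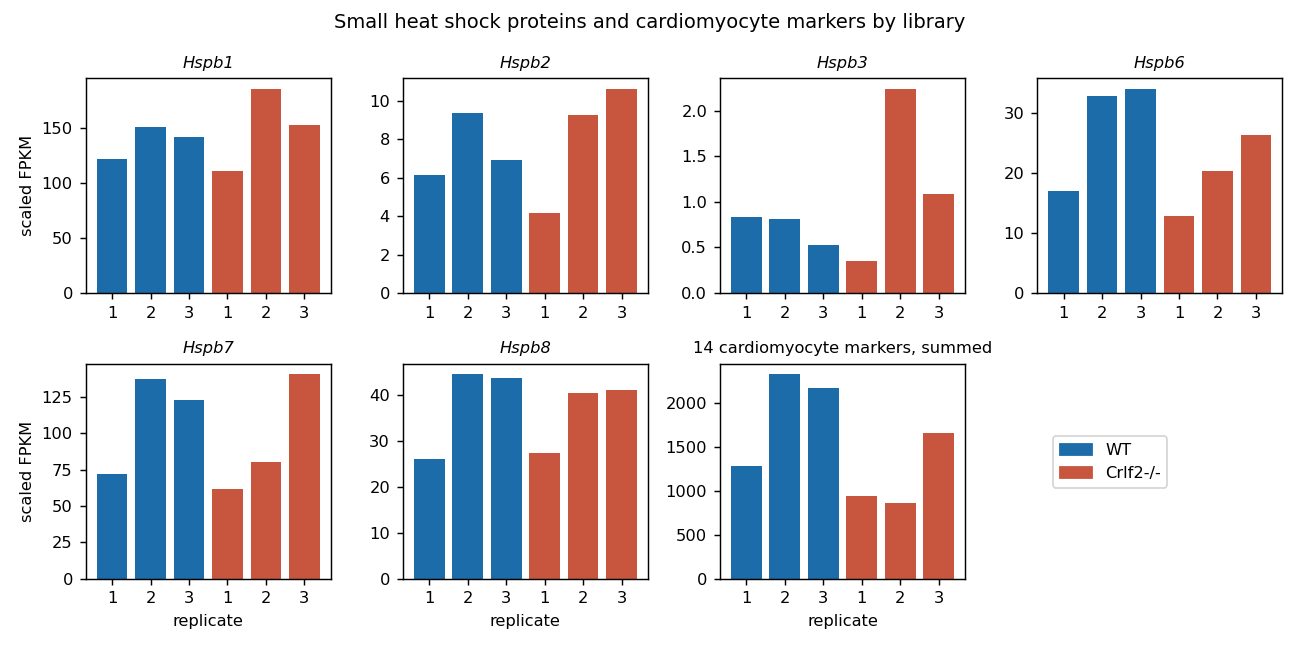
Bars show scaled FPKM (y axis, from 0) per library for 6 small heat shock protein genes and for the sum of 14 cardiomyocyte markers, with replicate number on the x axis, WT in blue and Crlf2-/- in red. The first library of each group is low for Hspb2, Hspb6, Hspb7 and Hspb8, and the marker sum runs from 864 to 2321.

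The members that were not named above were the rest of the tested DNAJ genes with Hspa1l, Hspb9 and Hspb11. Hspb9, a testis gene, and Hspa1l, which shares 70.5% of its read-length stretches with other genes, were both under 1 scaled FPKM in every library. Hspb11, a component of intraflagellar transport named for its resemblance to small heat shock proteins, was at 3.30, 3.15 and 2.65 in WT and 2.59, 2.86 and 2.26 in Crlf2-/-, with overlapping groups (-0.23 ± 0.15). Dnajb12 was the remaining member with every Crlf2-/- library below WT (-0.11 ± 0.10), and Dnajc12 the remaining one with every library above (0.13 ± 0.17). Of the 5 members without enough fragments, Dnajb8 and Dnajc5g were at 0 in all 6 libraries, Dnajc5b had 0 to 4 fragments per library, Dnajb7 0 to 6 and Dnajc22 0 to 11.

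Partners of these chaperones outside the naming rule were taken from a list that held 56 genes, of which 52 were tested. At an unadjusted p under 0.05, 5 were lower in Crlf2-/- (9.62%, against 3.24% of all tested genes) and 0 higher (against 3.31%), and the median was -0.07. The groups were separate on the lower side for 7 genes (13.5%, against 6.15%) and on the higher side for 1 (1.92%, against 5.57%), and none passed the adjusted threshold. Among the Hsp90 partners, Fkbp5, an immunophilin raised by glucocorticoids, was at 15.3, 10.5 and 6.29 in WT and 5.03, 5.95 and 4.68 in Crlf2-/-. WT 1 was the highest by far and the groups were separate (-0.94 ± 0.29, adjusted p = 0.492); without WT 1 the log2 fold change was -0.64. Fkbp4, its relative in steroid receptor complexes, was at 28.7, 30.9 and 26.2 in WT and 20.2, 24.0 and 24.8 in Crlf2-/- (-0.32 ± 0.12), and Stip1 (Hop), which joins Hsp70 to Hsp90, at 40.6, 41.1 and 36.6 in WT and 33.3, 34.3 and 32.7 in Crlf2-/- (-0.24 ± 0.10). Both were separate between the groups. The unadjusted p was under 0.05 in 12 of 15 alternatives for Fkbp4 and in 9 for Stip1. Of the 6 alternatives that left out a library, it was so in 3 and 1. Chordc1, an Hsp90-binding zinc protein, was at 8.78, 7.29 and 8.24 in WT and 6.85, 7.08 and 5.44 in Crlf2-/- (-0.33 ± 0.13; -0.21 without Crlf2-/- 3), and Cacybp, a partner of Hsp90 and Siah ligases, at 25.6, 24.2 and 21.0 in WT and 19.9, 21.0 and 16.5 in Crlf2-/- (-0.30 ± 0.13; -0.20 without Crlf2-/- 3), the latter with overlap. For Chordc1 the unadjusted p was under 0.05 in 11 of 15 alternatives, 3 of them leaving out a library, and for Cacybp in 10, 2 of them so. Ahsa1, the activator of the Hsp90 ATPase, was at 15.7, 14.5 and 13.6 in WT and 12.6, 15.8 and 13.1 in Crlf2-/- (-0.08 ± 0.12) and overlapped.

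The other co-chaperones had log2 fold changes of both signs. Bag3, the HSF1-regulated exchange factor of muscle, was at 25.9, 31.2 and 30.5 in WT and 23.8, 28.8 and 28.4 in Crlf2-/- (-0.11 ± 0.12), and Cryab (Hspb5), the most abundant small heat shock protein of the heart, at 127, 218 and 177 in WT and 118, 169.9 and 191 in Crlf2-/- (-0.12 ± 0.24). Both were lowest in the first library of each group. Hyou1 (Grp170), the exchange factor of BiP, was at 15.9, 20.4 and 18.5 in WT and 17.6, 15.6 and 14.6 in Crlf2-/- (-0.19 ± 0.13), and Sil1, another one, at 13.4, 13.9 and 11.5 in WT and 13.5, 15.5 and 15.6 in Crlf2-/- (0.20 ± 0.11). Clpx, the unfoldase of a mitochondrial protease, was at 10.8, 10.1 and 9.64 in WT and 8.42, 9.30 and 8.48 in Crlf2-/- and separate (-0.22 ± 0.10), while Bag6, which guards tail-anchored proteins, was at 15.9, 15.3 and 15.8 in WT and 16.3, 16.8 and 19.1 in Crlf2-/- and separate on the higher side (0.15 ± 0.10).

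**Figure D5:**
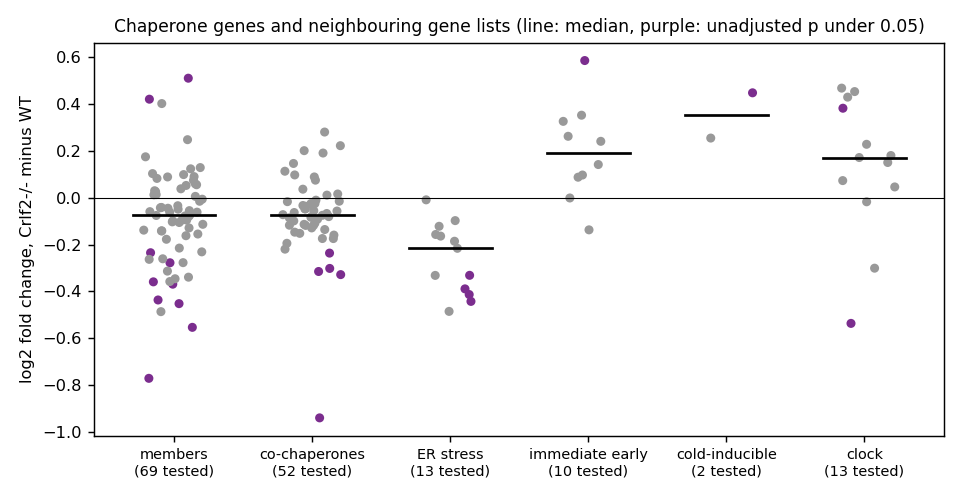
Log2 fold change (y axis, Crlf2-/- minus WT) of each tested gene in 6 lists (x axis), with the median as a line and genes at an unadjusted p under 0.05 in purple. The medians are -0.08 for the members, -0.07 for the co-chaperones and -0.22 for the ER stress genes, whose 13 points all lie below 0.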

How the data were processed

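RNA from infarcted and peri-infarcted hearts was sequenced in 3 WT and 3 Crlf2-/- libraries (poly-A selected, paired-end). Per the study's methods and processing notes, the authors trimmed reads with fastp 0.19.4, aligned them with HISAT2 2.0.5 and counted fragments per gene with featureCounts 1.5.0; the notes name mm10 and a human build. The deposited table holds FPKM per gene, which the authors computed from those counts. Gene positions equalled those of GENCODE M21 (GRCm38) for 71 of the 74 members.

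Each FPKM value times gene length fell on a whole multiple of 1 fragment (tolerance 0.1), which gave the fragments behind it and the library depths. Trimmed-mean-of-M-values factors worked out from these fragments put the libraries on a common scale, and values were tested as log2(FPKM + 0.1) with limma 3.58.1 (trend and robust, two-sided, Benjamini-Hochberg over the 15520 genes with at least 10 fragments in 3 libraries and 15 in total). Fold changes are on that scale, which understates those of low genes, and are given ± standard error. The test was tried on simulated data first. The alternatives were other scalings, filters and pseudocounts, voom on the fragments, the replicate number as a block, each library left out and the scaling without haemoglobin and mitochondrial genes.

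The members and lists were chosen with earlier results of these data known. Named with values in every library were the Hsp and HSF genes other than Hspa1l, Hspb9 and Hspb11, Dnaja1, Dnajb1, Dnajb4, the 10 further Dnaj genes with the smallest p, 7 chosen co-chaperones and the 5 others with the smallest p; Hspb11, Dnajb12, Dnajc12, the ER stress genes and the groups by compartment were taken up after their values were seen.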

Additional observations from a re-analysis of the deposited data

How the results depend on the processing

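In all 15 alternatives 0 members passed the adjusted threshold. No named member or co-chaperone with an unadjusted p under 0.05 in the main fit (limma) changed sign. Of 764 comparisons of a named gene with an alternative, 709 stayed on their side of an unadjusted p of 0.05, 45 were no longer under it and 10 came under it. The log2 fold changes of Hspa1a, Hspa1b, Hspa13, Hspa14, Hspb1, Hspb2, Hspb3, Hspb8, Hsf1, Hsf2, Dnajb4 and Cryab, none with a p under 0.05, changed sign in at least 1 alternative. The members lower at that p numbered 8, and leaving out a library gave 4 (without WT 2) to 9, with 5 without Crlf2-/- 2; the members higher numbered 2, and 1 with no filter, with voom or with the replicate block, and 1 to 2 without a library. Of the 10 members at that p, 5 remained without WT 2, 6 without WT 3 and 7 without each other library. The median of the tested members ran from -0.12 (without WT 3) to -0.058, and was -0.11 without Crlf2-/- 2. With a library left out, the median of the 13 HSF1-target members ran from -0.26 (without Crlf2-/- 3) to -0.15. In the main fit with all libraries it was -0.14. The co-chaperones lower numbered 2 to 4 without a library (2 without WT 1, WT 2, Crlf2-/- 1 or Crlf2-/- 3) and 3 with the replicate block, and those higher 0 to 1. Over all genes the calls numbered 2, but 6 with no filter, 1 with at least 10 fragments in every library, 4 with the replicate block and 1 to 14 without a library (7 without WT 3, 14 without Crlf2-/- 1). Why these counts differ was not tested, beyond fewer samples or other genes entering. Replicate numbers are shared by the groups, but the correlation of deviations between libraries of the same number was -0.016, 0.115 and 0.119, not over 0.1 for each pair, and gives no ground for pairing; with the block 8 members were lower. With 3 libraries a group, the depth behind Dnajb3, Hspb3 and Hspb9 limits what can be seen.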

Other observations

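Immediate early, cold-inducible and clock genes are given beside the family as values. Of 10 immediate early genes, 8 had a positive log2 fold change, Crlf2-/- minus WT (median 0.19), and 1 was higher at an unadjusted p under 0.05, against 3.31% of all tested genes: Fos, a subunit of AP-1, was at 5.13, 4.13 and 3.52 in WT and 6.59, 7.78 and 5.04 in Crlf2-/- (0.59 ± 0.19, adjusted p = 0.537, limma). Its groups overlapped only between WT 1 and Crlf2-/- 3. Of the 2 cold-inducible RNA-binding genes, Cirbp was at 3.65, 3.99 and 3.71 in WT and 4.57, 4.997 and 6.13 in Crlf2-/-, with every Crlf2-/- library above every WT library (0.45 ± 0.13, adjusted p = 0.460), and Rbm3 was at 24.8, 22.6 and 16.2 in WT and 24.4, 27.1 and 23.4 in Crlf2-/-, overlapping (0.25 ± 0.16). None of these passed the adjusted threshold.

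Among 13 clock genes the median log2 fold change was 0.17. At an unadjusted p under 0.05 (limma), 1 was lower and 1 higher (7.69% each), against 3.24% and 3.31% of all tested genes. Cry1, a repressor of the clock, was at 3.05, 2.35 and 3.01 in WT and 3.28, 3.65 and 4.10 in Crlf2-/- (0.38 ± 0.15, adjusted p = 0.690), with separate groups, and Nr1d1, a nuclear receptor of the clock, at 14.3, 21.8 and 20.3 in WT and 16.8, 10.04 and 12.2 in Crlf2-/- (-0.54 ± 0.22, adjusted p = 0.728), overlapping through Crlf2-/- 1. Red blood cell genes were lower at that p in 5 of 5 tested, against 3.24% of all tested genes. Their summed levels were 269.9, 365 and 226 in WT and 85.6, 161 and 110.0 in Crlf2-/-. The macrophage, neutrophil, fibroblast and proliferation lists held 0 genes at an unadjusted p under 0.05 of 8, 6, 8 and 6 tested with limma.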
